A study of Mus musculus with 2 samples.

Results

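Ccl2, Ccl7 and Ccl12, chemokine genes whose products draw monocytes out of the bone marrow and into tissue, were described in single-cell RNA profiles of cultured mouse macrophages. The members were taken by gene symbol, 3 of 31053 genes in the deposited tables, and each symbol matched 1 gene. They had been picked with their difference between these libraries known, so that difference is given as a description. Bone marrow of 129Sv mice had been cultured with M-CSF (50 ng/ml), the cytokine on which macrophages depend, and 10% fetal bovine serum, and dead cells were removed at harvest. From day 7 the cells of the THP group received 1 µg/ml of truncated, non-polymerizing Tamm-Horsfall protein (THP, or uromodulin, a kidney protein) for 18 h, and the vehicle group received 5% dextrose for 18 h. Each group is 1 droplet library, so no difference between the groups has a replicate check and no p-value is given. The sources used here do not give the age or number of the mice, or say whether marrow was pooled.

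These chemokines belong to the monocyte chemoattractant protein (MCP) group of the CC family, small secreted proteins named for a pair of adjacent cysteines near their start. All of them signal through CCR2, the receptor by which inflammatory monocytes leave the marrow, and CCL7 also binds CCR1 and CCR3. Macrophages are a main source of these proteins in inflamed tissue, and stromal cells of the marrow make CCL2 as well. Their genes are known targets of NF-kB and of interferon signalling.

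The 3 genes lie in 1 stretch of chromosome 11 (GRCm38, the assembly also called mm10, in the GENCODE M21 annotation, all on the plus strand). Ccl2 (ENSMUSG00000035385) spans 82035571 to 82037453, Ccl7 (ENSMUSG00000035373) spans 82045712 to 82047525, and Ccl12 (ENSMUSG00000035352) spans 82101845 to 82103400. Ccl7 starts 10.1 kb and Ccl12 starts 66.3 kb after the start of Ccl2. The first 300 bases of each coding sequence (all 294 of Ccl7) are shown because related genes can exchange reads in counting. They come from the GENCODE M21 transcripts, 5′ to 3′, and capitals mark the adjacent cysteine codons.
Ccl2: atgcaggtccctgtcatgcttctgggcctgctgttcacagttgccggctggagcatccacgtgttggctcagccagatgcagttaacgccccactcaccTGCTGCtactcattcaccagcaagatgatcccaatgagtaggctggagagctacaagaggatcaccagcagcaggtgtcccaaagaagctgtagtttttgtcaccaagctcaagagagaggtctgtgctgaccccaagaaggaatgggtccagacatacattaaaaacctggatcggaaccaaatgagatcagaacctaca
Ccl7: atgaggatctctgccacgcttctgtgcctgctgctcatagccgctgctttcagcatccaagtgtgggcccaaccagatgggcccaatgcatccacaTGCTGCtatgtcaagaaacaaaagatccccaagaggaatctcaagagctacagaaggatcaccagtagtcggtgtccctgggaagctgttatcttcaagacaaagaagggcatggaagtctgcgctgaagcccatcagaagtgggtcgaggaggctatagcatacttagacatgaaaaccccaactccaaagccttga
Ccl12: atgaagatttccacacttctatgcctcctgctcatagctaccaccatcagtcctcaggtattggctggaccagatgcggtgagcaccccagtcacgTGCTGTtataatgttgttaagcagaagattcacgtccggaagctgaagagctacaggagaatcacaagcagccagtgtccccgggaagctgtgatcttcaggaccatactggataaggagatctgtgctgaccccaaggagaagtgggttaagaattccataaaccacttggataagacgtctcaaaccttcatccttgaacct

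The cysteine pair begins at codon 34 of Ccl2 and at codon 33 of Ccl7 and Ccl12. Ccl2 has 148 codons before its stop, against 97 in Ccl7 and 104 in Ccl12, since mouse Ccl2 carries a longer tail. In a global alignment of the coding sequences, Ccl7 and Ccl12 were identical at 62.6% of columns, Ccl2 and Ccl12 at 47.0% and Ccl2 and Ccl7 at 43.8%. The longest run of bases shared between whole protein-coding transcripts was 23 for Ccl2 and Ccl7. It was 17 for Ccl2 and Ccl12 and 11 for Ccl7 and Ccl12, so these transcripts hold no long identical stretch. A longer annotated Ccl2 transcript, of 1096 bases against the 813 used, was not compared. Ccl2 overlaps the annotated gene Gm17268 on the other strand, which had 0 UMIs in both libraries. The RefSeq promoter table (GRCm38.p6) held 1 of the 3 promoters, that of Ccl12, from 82101595 to 82101894 on chromosome 11. It had 0 matches on either strand to an NF-kB-like motif, TGANTCA (AP-1), TTCNNNGAA (STAT) or GGGCGG (Sp1). These are found in 5.56%, 7.81%, 8.30% and 35.7% of the table's 32851 promoters, all of the same length.

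The THP library held 13193 barcodes and the vehicle library 11584, of which 12123 and 10978 were kept as cells, with 224825484 and 207662132 unique molecular identifiers (UMIs, each standing for 1 captured RNA molecule). Median UMIs per kept cell were 16113 and 17223. The libraries shared 42 barcodes. Cells were sorted by marker gates: a cell passed a gate with at least 3 of its fixed markers, each at 2 or more UMIs and at least 1 per 10000 UMIs. A cell past 1 lineage gate was placed there, a cell past more than 1 was called mixed, and a cell past none was called ungated.

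Although the cultures are labelled as macrophages, the macrophage gate (markers that include the C1q genes, Adgre1, Mrc1, Mertk and Apoe) held 3722 THP cells, 30.7%, and 2565 vehicle cells, 23.4%. The monocyte gate held 707 and 1017 cells, the neutrophil gate 1273 and 1685, the myeloid progenitor gate 927 and 948, and the stromal gate 60 and 55. Mixed cells numbered 1297 and 1857, and ungated cells 4048 and 2787. The gates for dendritic cells, mast cells or basophils, B lineage and T or NK lineage held under 50 cells per library and are not described. Macrophage-gated cells had 7 of 8 markers at 50 CPM or more in each library, summing to 2800 and 2874 CPM, where CPM is UMIs per 1000000 UMIs of the cells summed. Their median number of markers past the limit was 5 for macrophages and 0 for each other lineage. The gate cuts a range: 837 THP and 645 vehicle cells passed it with exactly 3 markers, and 1154 and 736 ungated cells had 2. Ungated cells carried Adgre1 at 295 and 212 CPM and Csf1r, the M-CSF receptor gene, at 242 and 262 CPM, but C1qa at only 12.6 and 9.34 CPM against 513 and 530 CPM in the macrophage gate.

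Over all kept cells, all 3 chemokines were higher in the THP library, Ccl12 and Ccl7 by about 4-fold and Ccl2 by about 2-fold. Ccl2 had 927 CPM in the THP library (exact Poisson 95% interval 923 to 931) and 471 CPM in the vehicle library (468 to 474), a ratio of 1.97 (1.95 to 1.98). Ccl7 had 276 CPM (274 to 278) with THP and 71.2 CPM (70.1 to 72.4) with vehicle, a ratio of 3.87 (3.8 to 3.94). Ccl12 had 66.9 CPM (65.8 to 68.0) with THP and 15.2 CPM (14.7 to 15.7) with vehicle, a ratio of 4.41 (4.24 to 4.58). These intervals, like all those below, cover counting error only. As log2 ratios of CPM + 1, THP over vehicle, the values were 0.97 for Ccl2, 1.94 for Ccl7 and 2.07 for Ccl12, which rank 82, 16 and 13 from the highest among the 8012 genes that reached 10 CPM in either library. The 2-fold limit on that scale was passed by Ccl7 and Ccl12, and by 0.911% of the 8012 genes in that direction; the members were chosen on this contrast, so nothing is read from that. Over the 8012 genes the log2 ratio had a median of -0.18, or 0.10 with TMM scaling, under which Ccl2 passed the limit too, at 1.26, with Ccl7 at 2.22 and Ccl12 at 2.34.

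Part of the difference over all cells moved with the mix of cells, since macrophage-gated cells made up 43.5% of THP UMIs and 33.4% of vehicle UMIs. With the same mix of gated cells in both libraries the log2 ratios were 0.79 for Ccl2, 1.68 for Ccl7 and 1.80 for Ccl12. The macrophage gate was the largest source of each gene: it gave 59.2% of Ccl2 UMIs, 72.1% of Ccl7 UMIs and 74.6% of Ccl12 UMIs in the THP library, and 54.3%, 69.1% and 72.2% in the vehicle library. Ungated cells gave 27.8%, 19.7% and 18.1% with THP and 24.9%, 17.6% and 17.1% with vehicle. Monocyte-gated cells gave 4.2% of Ccl2 UMIs but 1.04% of Ccl7 UMIs with THP, and 10.4% and 2.24% with vehicle.

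Within the macrophage gate the genes kept their order by the size of the difference between libraries. Ccl2 had 1262 CPM with THP (1255 to 1269) and 767 CPM with vehicle (760 to 774), a ratio of 1.65 (1.63 to 1.66). Ccl7 stood at 457 CPM (452 to 461) against 148 CPM (145 to 150), a ratio of 3.1 (3.03 to 3.16). Ccl12 stood at 115 CPM (113 to 117) against 32.8 CPM (31.5 to 34.2), a ratio of 3.49 (3.34 to 3.65). The log2 ratios on CPM + 1 were 0.72, 1.62 and 1.77, ranking 135, 32 and 27 from the highest of 7874 genes, of which 0.991% passed 2-fold as higher and 2.18% as lower. The interval of the Ccl2 ratio lay below those of the other two, so in these libraries the THP difference of Ccl2 was smaller by more than counting error.

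**Figure D1:**
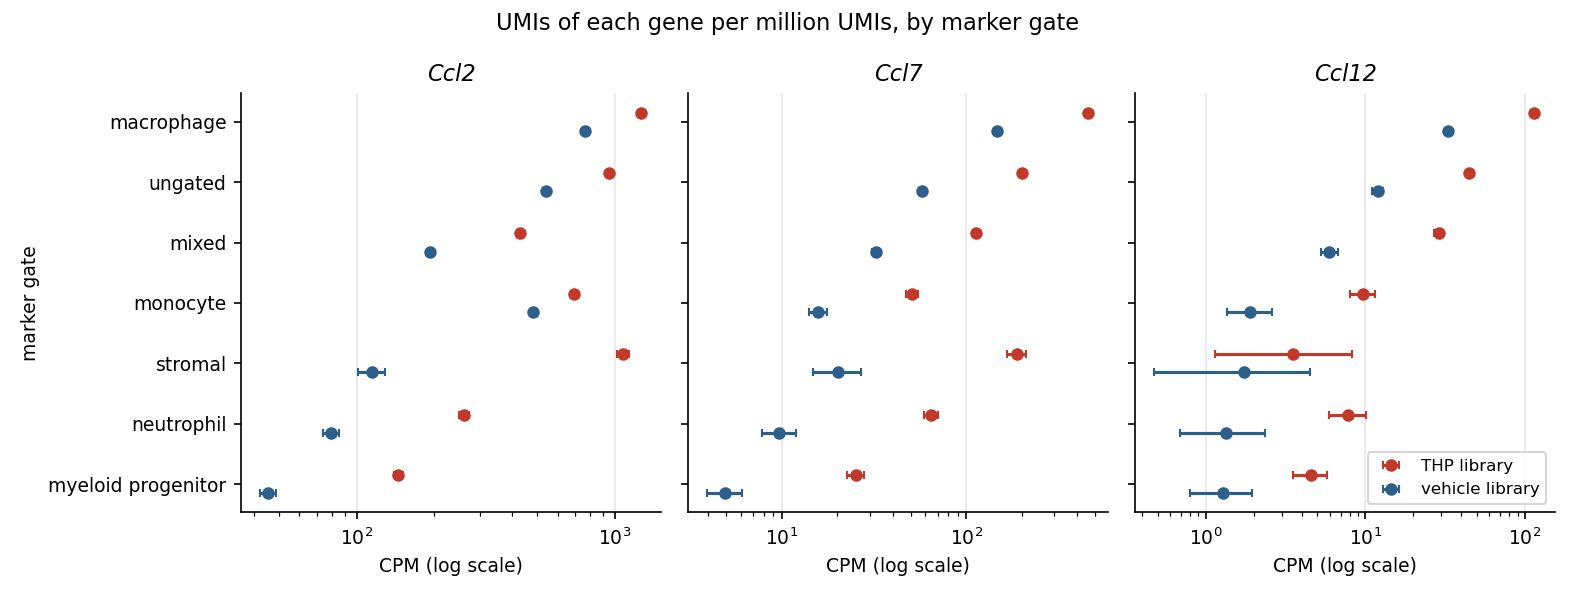
CPM (UMIs of the gene per 1000000 UMIs of the gate, log axis) of Ccl2, Ccl7 and Ccl12 in 7 marker gates, for the THP library (red) and the vehicle library (blue). Bars are exact Poisson 95% intervals; the THP point lies to the right in every gate, and the stromal gate has the widest gap for Ccl2, 1077 against 114 CPM.

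The order of the gates differed between the genes. For Ccl2 in the THP library the macrophage gate came first at 1262 CPM, then stromal cells at 1077 (1023 to 1132) and ungated cells at 949. Monocytes followed at 695 (680 to 709), then mixed cells at 429, neutrophils at 260 (249 to 272) and progenitors at 145 (139 to 151). No neighbouring intervals overlapped, but they leave out variation between cells, of which the stromal gate held only 60. In the vehicle library the order was macrophages at 767 CPM, ungated cells at 542, monocytes at 484 (474 to 493), mixed cells at 193, stromal cells at 114 (101 to 129), neutrophils at 79.4 (73.7 to 85.5) and progenitors at 45.4 (42.3 to 48.7). Stromal cells thus stood next to the macrophages with THP and among the low gates with vehicle. Monocytes held a high place for Ccl2 in both libraries.

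Monocytes, the circulating precursors that these chemokines recruit, carried Ccl2 with little Ccl7 or Ccl12. Their Ccl7 level was 51.0 CPM with THP (47.1 to 55.1) and 15.8 CPM with vehicle (14.1 to 17.6), and their Ccl12 level was 9.61 CPM (7.98 to 11.5) and 1.90 CPM (1.36 to 2.59). On the CPM + 1 scale the THP log2 ratios in this gate were 0.52 for Ccl2, 1.63 for Ccl7 and 1.87 for Ccl12, beside 1.07% of 7758 genes past 2-fold as higher and 2.9% as lower. The low Ccl7 and Ccl12 levels here are set beside those of neutrophils and progenitors below. Ungated cells had Ccl7 at 200 against 57.8 CPM and Ccl12 at 44.6 against 11.9 CPM, with log2 ratios of 0.81, 1.78 and 1.82 for Ccl2, Ccl7 and Ccl12, beside 0.928% of 7870 genes higher and 3.68% lower.

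Stromal cells, the collagen-making cells of the marrow, showed the widest gap of any gate described for Ccl2. Its ratio was 9.42 (8.25 to 10.8), and Ccl7 had 188 CPM (166 to 212) against 20.1 CPM (14.7 to 26.9), a ratio of 9.34 (6.81 to 13.1). Ccl12 was barely detected in these cells, with 5 UMIs in 60 THP cells and 4 UMIs in 55 vehicle cells. Macrophage markers summed to 202 CPM in THP stromal cells and 161 CPM in vehicle stromal cells, against 2800 and 2874 CPM in the macrophage gate. The stromal libraries also differed otherwise: median UMIs per cell were 20070 and 38370, and the summed stromal markers, which include Col1a1 and Sparc, were 5881 and 17315 CPM. The part of that difference in the chemokine ratios was not tested. With each cell thinned to 5000 UMIs, 66.7% of THP stromal cells (53.3 to 78.3) but 14.8% of vehicle stromal cells (6.62 to 27.1) had a Ccl2 UMI.

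Free RNA in the droplets can add UMIs of abundant genes to any cell, so shares of cells with a UMI are set beside those of neutrophils and progenitors. Whether these gates lack the messages was not tested, and their levels differed from each other. Cells were thinned to 5000 UMIs each for shares, which left out 63 THP and 32 vehicle macrophages. A Ccl2 UMI was found in 76.9% of THP macrophages (exact binomial 95% interval 75.4 to 78.2) and in 66.5% of vehicle macrophages (64.6 to 68.4). For progenitors, early marrow cells that make granule proteins, the Ccl2 shares were 16.1% (13.8 to 18.6) and 7.10% (5.54 to 8.95), and for neutrophils 23.7% (20.1 to 27.7) and 10.3% (8.03 to 13). The interval of the vehicle stromal share, 14.8%, overlapped those of vehicle neutrophils and progenitors. Monocytes lay above both gates, at 54.4% (50.7 to 58.2) and 46.4% (43.3 to 49.6).

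Ccl7 was detected in 47.9% of THP macrophages (46.2 to 49.5) and 25.7% of vehicle macrophages (24.0 to 27.5), and Ccl12 in 22.8% (21.4 to 24.2) and 10.3% (9.18 to 11.6). The progenitor shares were 5.84% (4.41 to 7.57) and 0.969% (0.444 to 1.83) for Ccl7 and 1.21% and 0.323% for Ccl12. The monocyte shares for Ccl7 were 9.54% (7.47 to 12.0) with THP and 3.18% (2.19 to 4.46) with vehicle, next to neutrophil shares of 7.00% (4.95 to 9.57) and 2.62% (1.51 to 4.23), with overlapping intervals in each library. The vehicle monocyte share lay above the progenitor one, while with THP those intervals met. By CPM, monocyte Ccl7 was below the neutrophil level of 64.5 CPM (58.9 to 70.5) with THP and above that of 9.73 CPM (7.79 to 12) with vehicle. Monocyte Ccl12, at 2.14% and 0.895%, had intervals that overlapped those of neutrophils, at 1.75% and 0.492%, and of progenitors. Without thinning the macrophage shares were 89.6% and 82.9% for Ccl2, 66.7% and 44.6% for Ccl7 and 45.1% and 27.0% for Ccl12. Median UMIs per cell were 21860 and 23500 in macrophages, 14218 and 16862 in progenitors, and 4175 and 4014 in neutrophils, of which 759 and 1075 cells were too shallow to thin.

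The proportion of the 3 messages differed between gates. In THP macrophages there were 0.362 Ccl7 UMIs per Ccl2 UMI (0.358 to 0.366), in THP monocytes 0.0734 (0.0677 to 0.0795) and in THP stromal cells 0.175 (0.153 to 0.199). The vehicle values were 0.192 (0.188 to 0.197), 0.0327 (0.0292 to 0.0364) and 0.176 (0.126 to 0.242). The macrophage proportion was higher in the THP library, and so was the monocyte one, while the stromal intervals overlapped between libraries. Neutrophils were also higher with THP, at 0.248 (0.224 to 0.274) against 0.1225 (0.0969 to 0.153) with vehicle. Progenitors were too, at 0.174 (0.155 to 0.194) against 0.109 (0.0862 to 0.137). The stromal and progenitor intervals of this proportion overlapped in each library. For Ccl2 the THP over vehicle ratio of CPM was 3.27 in neutrophils and 3.19 in progenitors, against 1.65 in macrophages and 1.44 in monocytes. For Ccl7 these ratios were 6.63 and 5.08, against 3.1 and 3.23. The higher level with THP was thus not confined to macrophages and monocytes. For Ccl12 the neutrophil and progenitor intervals overlapped those of macrophages and monocytes. Ccl12 per Ccl2 UMI was 0.0909 in THP macrophages (0.0891 to 0.0927), 0.0138 in THP monocytes (0.0115 to 0.0166) and 0.00330 in THP stromal cells (0.00107 to 0.00771). With THP the stromal proportion, from 5 Ccl12 UMIs, lay below that of progenitors, 0.0314 (0.0242 to 0.0401). With vehicle the stromal value was 0.0153 (0.0041 to 0.0397), from 4 Ccl12 UMIs. Its interval overlapped that of vehicle progenitors, 0.0282 (0.0176 to 0.0431), while vehicle monocytes were at 0.00393 (0.00281 to 0.00536).

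**Figure D2:**
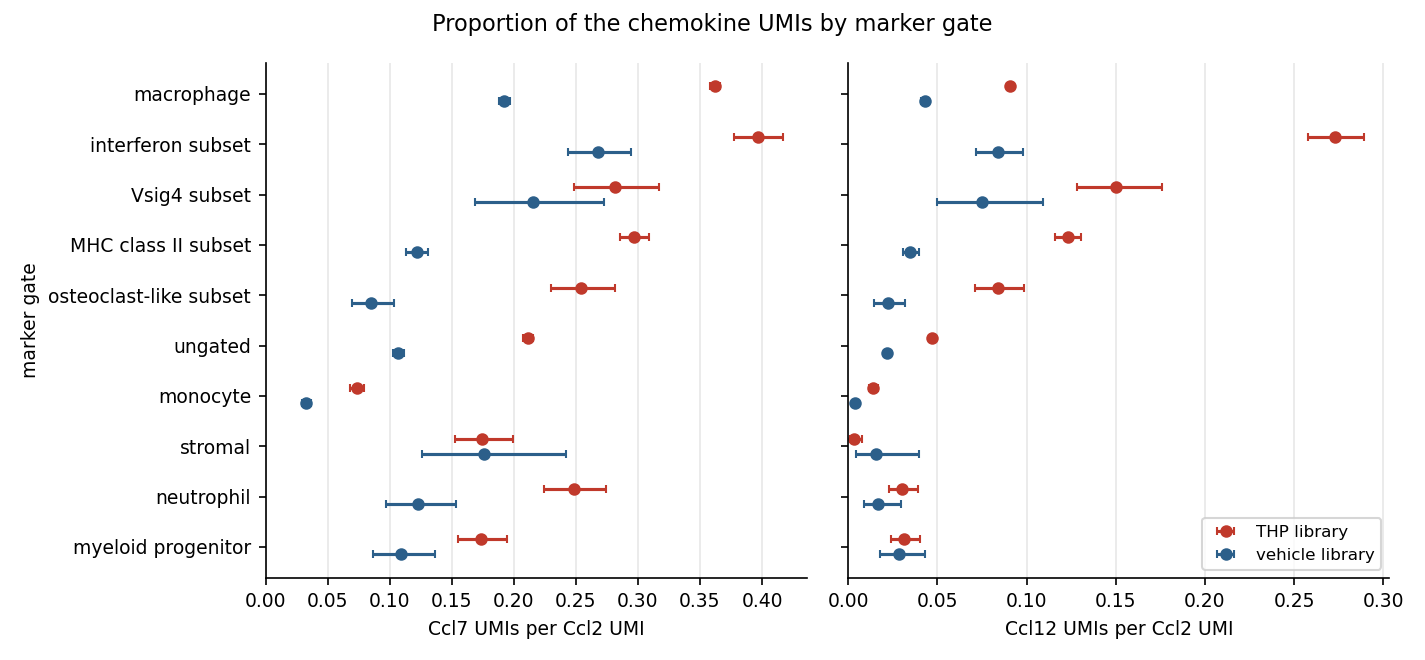
Ccl7 UMIs (left) and Ccl12 UMIs (right) per Ccl2 UMI in marker gates and in subsets of the macrophage gate, THP library in red and vehicle library in blue, with exact 95% counting intervals. Monocytes have the lowest Ccl7 proportion in both libraries, and the interferon subset has the highest Ccl12 proportion with THP, 0.273.

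Subsets within the macrophage gate were set by further markers. The interferon subset (at least 3 of Rsad2, Ifit1, Ifit2, Ifit3, Cxcl10 and Isg15, in 129 THP and 78 vehicle cells) had the highest level of each gene among the 4 subsets, and its excess was greatest for Ccl12. There Ccl12 had 387 CPM with THP (368 to 407) and 84.3 CPM with vehicle (72.2 to 97.8), against 107 CPM (105 to 109) and 36.0 CPM (34.4 to 37.7) in macrophages past no subset gate. For Ccl2 the same comparison was 1416 against 1344 CPM with THP and 1003 against 838 CPM with vehicle. Ccl7 had 562 CPM (539 to 585) against 496 CPM (491 to 501) with THP and 269 against 169 CPM with vehicle.

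The osteoclast-like subset was set by at least 3 of Atp6v0d2, Dcstamp, Ocstamp, Ctsk, Mmp12 and Acp5, genes expressed in bone-resorbing cells. It held 150 THP and 141 vehicle cells, of which 126 and 107 passed with exactly 3 markers. Over all macrophage-gated cells Mmp12 alone stood at 524 and 917.5 CPM, of 610 and 1028 CPM for the 6 markers summed. This subset lay lower, with Ccl2 at 434 CPM (414 to 454) and 294 CPM (278 to 310), and Ccl7 at 110 and 25 CPM. The Vsig4 subset, macrophages with markers of resident cells, held 85 and 82 cells and had Ccl2 at 620 CPM (586 to 656) and 232 CPM (210 to 256), with Ccl12 at 93.3 and 17.4 CPM. Cells past the MHC class II subset gate, which carry genes for antigen presentation, numbered 339 and 337 and had Ccl2 at 966 and 624 CPM, Ccl7 at 287 and 75.9 CPM and Ccl12 at 119 and 21.8 CPM. Every subset was higher in the THP library for every gene, with ratios from 1.41 (1.34 to 1.48, Ccl2 in the interferon subset) to 5.61 (3.74 to 8.71, Ccl12 in the osteoclast-like subset). The Ccl12 ratio was above the Ccl2 ratio in all 4 subsets, for example 5.46 (4.75 to 6.29) against 1.55 (1.5 to 1.6) in the MHC class II subset.

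The levels also moved with how many macrophage markers a cell carried, among cells past no other lineage gate. Chemokine levels were taken after thinning to 5000 UMIs, but markers were counted before it. The number of markers can therefore still move with the depth of a cell. THP cells with 0 markers had Ccl2 at 208 CPM (194 to 223), those with 2 markers 1241 CPM (1212 to 1271), those with 4 markers 1367 CPM (1330 to 1405) and those with 6 or more 963 CPM (938 to 988). The vehicle values at the same steps were 132, 704, 898 and 544 CPM. Ccl2 was thus lower at both ends of the range in each library. Ccl7 in THP cells went from 18.7 CPM at 0 markers to 319 at 2, 470 at 4, 509 (487 to 531) at 5 and 411 (395 to 428) at 6 or more. Ccl12 went from 4.68 CPM at 0 markers to 65.5 at 2, 133 (123 to 145) at 5 and 122 (114 to 131) at 6 or more. Ccl2 was near its upper level at 2 markers in THP cells, while Ccl7 and Ccl12 were still higher at 5 markers than at 2.

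**Figure D3:**
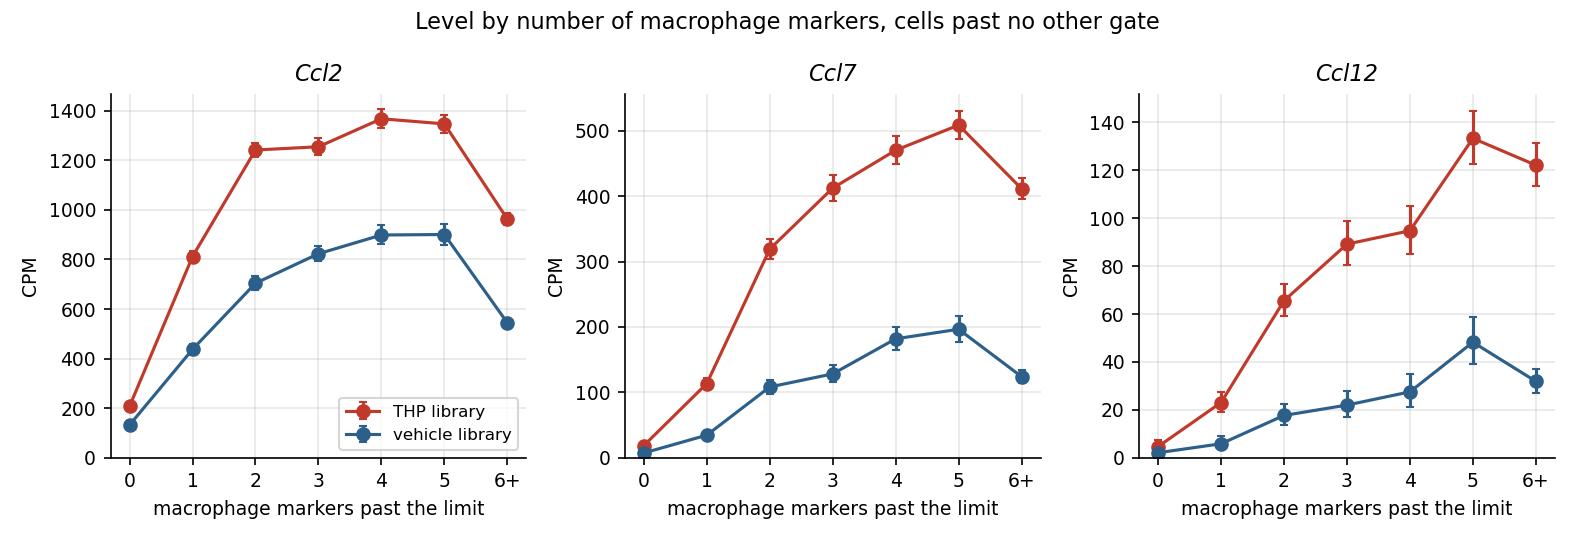
CPM of each gene by the number of macrophage markers past the limit (0 to 6 or more of 8), in cells past no other lineage gate. Markers were counted before each cell was thinned to 5000 UMIs. THP is in red and vehicle in blue, and bars are exact Poisson 95% intervals. The THP curve is above the vehicle curve at every step, and all values are lower at 6 or more markers than at 5, though the THP Ccl12 intervals overlap.

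Expression was spread unevenly over macrophages. In THP macrophages the median cell had 6.12 Ccl2 UMIs per 10000 of its UMIs, the 90th percentile cell 30.0 and the highest cell 256, while in vehicle macrophages these were 3.33, 18.9 and 119. The median cell had 0.941 Ccl7 UMIs per 10000 with THP and 0 with vehicle, and the 90th percentile cell had 12.6 and 4.12. For Ccl12 the median was 0 in both libraries, and the 90th percentile 2.98 and 0.799. The whole distribution of each gene was shifted upward with THP from the percentile at which it was first detected.

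**Figure D4:**
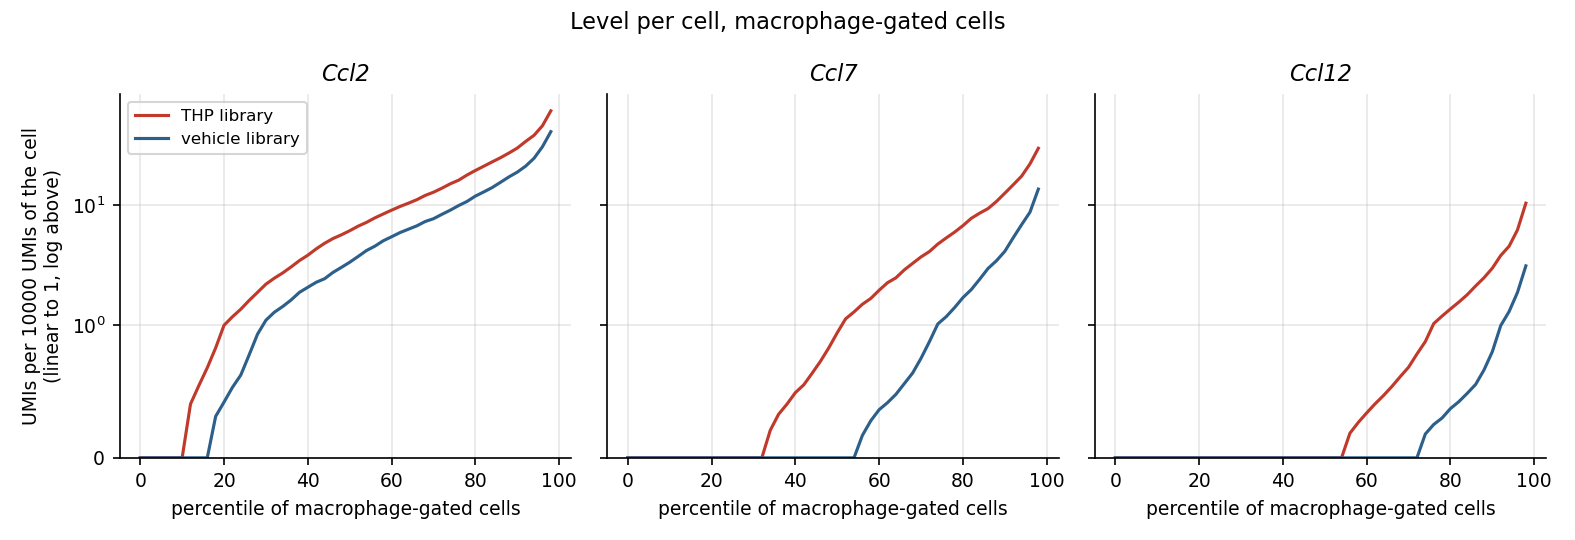
UMIs per 10000 UMIs of the cell (linear to 1, log above) against the percentile of macrophage-gated cells, for 3722 THP cells (red) and 2565 vehicle cells (blue); the line stops before the highest cells. The THP line leaves 0 at a lower percentile and stays above the vehicle line for each gene.

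The top 10% of THP macrophages, ranked by the gene's own UMIs, held 46.6% of Ccl2 UMIs, 58.4% of Ccl7 UMIs and 67.6% of Ccl12 UMIs. The vehicle shares were 47.0%, 69.3% and 76.3%. The ratio of variance to mean (Fano factor) of thinned counts was 12.7 for Ccl2, 9.08 for Ccl7 and 5.26 for Ccl12 in THP macrophages, against a median of 1.04 over 7374 genes of at least 10 CPM. These are ranks 17, 26 and 49 from the highest. In vehicle macrophages they were 8.78, 5.59 and 2.42, at ranks 29, 47 and 122 of 7769. The factor rises with the level of a gene as well as with its spread.

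The 3 messages were found together in single macrophages. Correlations below are Pearson's r on log(1 + UMIs per 10000) of thinned cells; they are across cells of 1 library that share culture, droplet run and free RNA, and have no p-value. Over 3659 THP macrophages r was 0.65 for Ccl2 and Ccl7, 0.35 for Ccl2 and Ccl12 and 0.37 for Ccl7 and Ccl12. Over 2533 vehicle macrophages it was 0.52, 0.23 and 0.24. Among 7240 genes, Ccl7 had the highest r with Ccl2 and Ccl2 the highest with Ccl7, ranked by the smaller of the 2 libraries' values. The median r of those genes with Ccl2 was near 0 in both libraries, and 99% of them lay below 0.099 with THP and 0.14 with vehicle. The partners of Ccl12 with the highest r were Ccl7 and then Ccl2. Sparse counts hold r down, and it rose with depth: at 10000 UMIs per cell the Ccl2 and Ccl7 values were 0.71 and 0.59. In monocytes (702 THP and 1006 vehicle cells) r was lower, at 0.33 and 0.28 for Ccl2 and Ccl7, 0.18 and 0.06 for Ccl2 and Ccl12, and 0.13 and -0.02 for Ccl7 and Ccl12, the pairs with Ccl12 resting on 15 and 9 cells with a Ccl12 UMI.

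Detection showed the same nesting. Of THP macrophages with a Ccl7 UMI, 94.1% (92.9 to 95.1) had a Ccl2 UMI, against 61.1% (58.8 to 63.2) of those without Ccl7. Of those with a Ccl2 UMI, 58.6% (56.7 to 60.4) had Ccl7, against 12.3% (10.1 to 14.7) of those without Ccl2. In vehicle macrophages the Ccl7 shares were 35.8% (33.5 to 38.1) and 5.78% (4.30 to 7.57). Ccl12-positive THP macrophages had Ccl7 in 74.9% (71.8 to 77.8), and Ccl12-negative ones in 39.9% (38.1 to 41.7). Cells with Ccl7 or Ccl12 thus mostly held Ccl2, while many cells with Ccl2 had neither at this depth.

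All 3 genes were detected in 16.8% of THP macrophages (15.6 to 18.1) and 4.97% of vehicle macrophages (4.16 to 5.89), and none of them in 19.2% (17.9 to 20.5) and 30.7% (28.9 to 32.5). Cells with Ccl2 as the sole member detected made up 27.2% (25.8 to 28.7) of THP and 38.4% (36.5 to 40.3) of vehicle macrophages. Ccl7 alone was seen in 2.62% and 1.78% and Ccl12 alone in 1.12% and 0.868%. Among monocytes, 45.6% of THP cells and 43.0% of vehicle cells had Ccl2 alone, and all 3 genes were found in 4 of 702 THP cells and 0 of 1006 vehicle cells.

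Within each range of Ccl2 UMIs, Ccl7 and Ccl12 were higher in the THP library. Macrophages with 3 to 5 Ccl2 UMIs among 5000 had Ccl7 at 297 CPM (278 to 316) in 649 THP cells and at 128 CPM (114 to 143) in 476 vehicle cells. With 11 or more Ccl2 UMIs, Ccl7 was at 1437 CPM (1396 to 1478) in 673 THP cells and at 722 CPM (673 to 773) in 227 vehicle cells, and Ccl12 at 283 CPM (265 to 302) and 90.8 CPM (74.1 to 110). With 0 Ccl2 UMIs, Ccl7 was at 37.5 CPM (31.9 to 43.9) and 14.4 CPM (11 to 18.5). The intervals cover counting error only, and how many other genes differ within these ranges was not tested. Ccl2 was not held equal within a range, least of all in the open one, since THP cells reached higher Ccl2 levels.

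**Figure D5:**
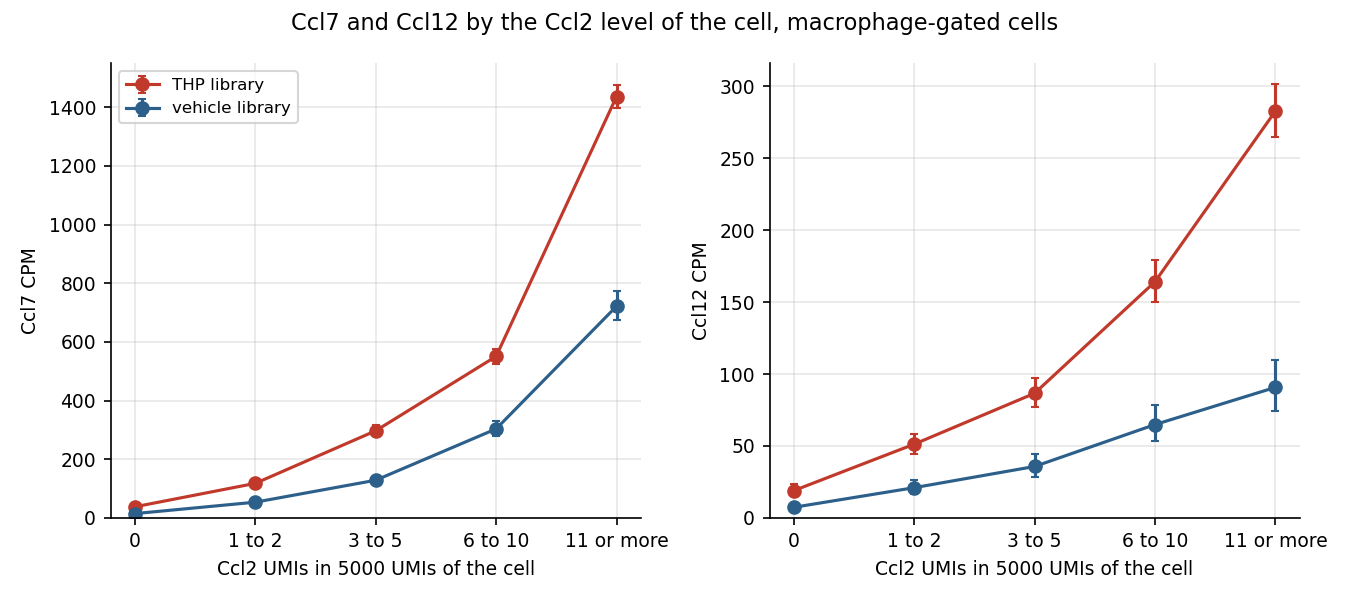
Ccl7 CPM (left) and Ccl12 CPM (right) of macrophage-gated cells grouped by their Ccl2 UMIs among 5000, THP in red and vehicle in blue, with exact Poisson 95% intervals. Both genes are higher at each higher Ccl2 level, and the THP value is above the vehicle value throughout, for example 297 against 128 CPM of Ccl7 at 3 to 5 Ccl2 UMIs.

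Of the other genes, the one with the highest r to each member over macrophages was Pf4, which encodes a platelet and macrophage chemokine of the CXC family. Since sparse counts hold r down, this ranking can favour abundant genes. Its r with Ccl2 was 0.36 over THP and 0.40 over vehicle macrophages, with Ccl7 0.34 and 0.32, and with Ccl12 0.16 and 0.15. Next for Ccl2 came Ifitm3, an interferon-induced membrane protein gene, at 0.32 and 0.36, then Lgals1 (galectin) at 0.27 and 0.31, S100a6 at 0.27 and 0.31 and S100a4 at 0.24 and 0.29. For Ccl7 they were Lgals1 at 0.24 and 0.23, the scavenger receptor gene Stab1 at 0.23 and 0.21, the endocytic adaptor gene Dab2 at 0.19 and 0.21, and Ifitm3 at 0.21 and 0.18. For Ccl12 the next values were 0.17 and 0.11 for Cxcl10, an interferon-induced chemokine gene, and 0.12 or less for Stab1, Ets2 and Snx2, too weak in such sparse counts to be read. Pf4 itself was at 2086 CPM in THP and 1336 CPM in vehicle macrophages, a log2 ratio of 0.64, while Dab2 was lower with THP, at 617 against 1159 CPM. At the other end, Lpl, the lipoprotein lipase gene, named after its values were seen, had the lowest r with Ccl2, -0.30 and -0.31.

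The other genes of the same stretch of chromosome 11 were nearly silent. Ccl8, which encodes another MCP, had 0.685 CPM with THP (0.581 to 0.802) and 0.154 CPM with vehicle (0.105 to 0.217). Ccl11, the eotaxin gene between Ccl7 and Ccl12, had 0 UMIs in both libraries, where 3 UMIs would be 0.0133 and 0.0144 CPM. Ccl1 had 4 and 0 UMIs. Of the 6 genes of the stretch, the 3 members were thus the ones with at least 10 CPM.

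Receptor genes were lower in the THP library, in the opposite direction to the ligands. Of 7 listed receptor genes, 4 reached 10 CPM in at least 1 library; 0 of them were 2-fold higher and 2 were 2-fold lower, beside 2.97% of all 8012 genes lower, and their median log2 ratio was -0.75. Ccr2, the receptor all 3 ligands share, had 108 CPM with THP (107 to 110) and 219 CPM with vehicle (217 to 221), a log2 ratio of -1.01. Ccr1, which also binds CCL7, had 67.7 CPM (66.6 to 68.8) and 147 CPM (146 to 149), a log2 ratio of -1.11. Ccr3 had -0.48. With TMM scaling the values were -0.73 for Ccr2, -0.83 for Ccr1 and -0.22 for Ccr3, so none of these passed 2-fold. Ackr1, Ackr2 and Ackr4, decoy receptors that take up chemokines without signalling, were at 0.107 CPM or less.

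Among the gates described, Ccr2 was highest in monocytes. These cells, for whose gate Ccr2 is itself a marker, had Ccr2 at 341 CPM with THP (330 to 351) and 490 CPM with vehicle (480 to 499), and macrophages at 50.0 CPM (48.6 to 51.4) and 90.8 CPM (88.6 to 93.1). The gap between libraries was present within both gates, while stromal cells went the other way, at 56.1 CPM (44.4 to 69.9) and 25 CPM (18.9 to 32.3).

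Among 9 other CC chemokine genes, 6 were tested, of which 2 passed 2-fold as higher and 0 as lower, beside 0.911% higher and 2.97% lower of all 8012 genes. Their median log2 ratio was 0.23, beside -0.18 over all genes. Those 2 were Ccl3 at 2.39 and Ccl4 at 2.88, inflammatory chemokines made by macrophages. Ccl9 and Ccl6, which macrophages make without stimulation, had 0.44 and 0.02. Ccl5 had -0.21 and Ccl25 -0.27, which were 0.06 and -0.003 with TMM scaling. In macrophage-gated cells Ccl9 had 0.27, Ccl6 -0.32, Ccl25 -0.21 and Ccl5 0.74, the last at only 6.99 CPM with THP and 3.78 CPM with vehicle. Of 12 regulators of chemokine messages all were tested; 3 passed 2-fold as higher and 0 as lower, beside the same 0.911% and 2.97% of all genes, and their median was 0.18. These were Nfkbiz, a nuclear NF-kB cofactor, at 1.94, Nfkbia, the NF-kB inhibitor, at 1.55, and Zc3h12a, an RNase that degrades inflammatory messages, at 1.08. The NF-kB subunit genes Nfkb1 and Rela had 0.56 and 0.35, the decay factor gene Zfp36 0.55, and Irf1, which acts downstream of interferon, -0.35.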

How the data were processed

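UMI counts per gene and cell barcode, as deposited, are raw whole-number counts of 2 Chromium droplet libraries, with matrix software version 3.1.0 per the file headers. Cell Ranger, STAR, bcl2fastq and the mm10 build are named in the submitters' processing notes; the sources used here do not name the annotation release. Cells with at least 500 genes, 1000 UMIs and at most 10% mitochondrial UMIs were kept. No doublet caller was run: cells past more than 1 lineage gate stayed out of the gates, and an alternative dropped the 5% of cells with most UMIs. CPM were computed from UMIs summed over cells, with exact Poisson or binomial 95% intervals that cover counting error only; 3 counts stand for the limit of a count of 0. Log2 ratios use a pseudocount of 1 CPM and a minimum of 10 CPM. Cells were thinned without replacement (seed 1) for shares and correlations. TMM and RLE factors came from edgeR 4.0.16; other steps used Python 3.11.15 with scipy 1.17.1, and were checked on simulated data. The members, gates, lists and tests were chosen with earlier results of these libraries known. Named genes are the members, the 5 non-members with the highest r to each, ranked by the smaller of the libraries' values, and genes of the fixed lists, some of which are not reported here. The longest annotated transcript stood for gene length in the length correction.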

Additional observations from a re-analysis of the deposited data

Results flagged for a closer look

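Barcodes left out by the cell filter, 1070 with THP and 606 with vehicle, with medians of 1141 and 1238 UMIs, also carried the 3 chemokines, and at higher levels with THP, beyond counting error. Ccl2 was at 508 CPM (480 to 538) in these THP barcodes and 231 CPM (207 to 257) in the vehicle ones. Ccl7 was at 126 CPM (112 to 141) and 34.3 CPM (25.4 to 45.3), and Ccl12 at 21.7 CPM (16.1 to 28.6) and 7.69 CPM (3.84 to 13.8). With 1 library per group this was not tested against variation between cultures.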

How the results depend on the processing

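All 51 log2 ratios of the members under the alternatives stayed above 0, as did all 24 correlations over macrophage-gated cells; 43 of 105 values stayed within counting error of the first value (0.05 for a correlation, 1.5 times for a count). Values of Ccl2, Ccl7 and Ccl12 are given in that order where 3 are listed. Over all kept cells the log2 ratios were 1.02, 1.98 and 2.18 without the top 5% of cells by UMIs, 1.26, 2.22 and 2.34 with TMM factors, 1.25, 2.22 and 2.34 with RLE factors, 0.86, 1.75 and 1.88 with the length correction, and 0.79, 1.68 and 1.80 with the same mix of gated cells. With a pseudocount of 0.1 CPM Ccl12 was at 2.13, and with equal weight per cell Ccl2 was at 1.03 and Ccl12 at 2.13. Ccl2 therefore lay on either side of 2-fold. Genes past 2-fold, 73 higher and 238 lower, became 138 and 69 with TMM or RLE factors, 113 and 71 with the length correction, and 187 and 1387 at a limit of 1.5-fold; the cause was not tested beyond the scaling shift, which moved the median of all genes from -0.18 to 0.10 (TMM) and 0.09 (RLE).

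In macrophage-gated cells the log2 ratios were 0.94, 1.84 and 1.99 with TMM factors. Ccl2 was at 0.75 and Ccl12 at 1.85 when a marker counted with 1 UMI, Ccl2 at 0.75 and Ccl7 at 1.56 with 4 markers needed, Ccl7 at 1.59 with cells past another gate kept, Ccl12 at 1.91 without the top 5% of cells, and Ccl2 at 0.70 and Ccl7 at 1.56 with equal weight per cell. Adding the ungated cells, an alternative chosen after seeing the data, gave 0.75 for Ccl2 and 1.67 for Ccl7.

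Depth moved shares and correlations most. Thinned to 10000 UMIs, 85.3%, 57.5% and 33.9% of THP macrophages and 76.9%, 33.9% and 15.7% of vehicle macrophages had a UMI; without thinning these were 89.6%, 66.7% and 45.1%, and 82.9%, 44.6% and 27.0%. At 10000 UMIs r was 0.71 for Ccl2 and Ccl7, 0.42 for Ccl2 and Ccl12 and 0.44 for Ccl7 and Ccl12 with THP, and 0.59 and 0.29 for the first 2 pairs with vehicle. Without thinning it was 0.74, 0.45 and 0.47 with THP and 0.64, 0.36 and 0.35 with vehicle. No paired analysis was possible because each group is 1 library and the labels carry no replicate numbers. Leaving out a replicate was not possible with 1 library per group.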
